A study of Mus musculus with 9 samples.

Results

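Voltage-gated sodium and calcium channels were followed in the mouse cerebral cortex as the 40 gene rows, of 32531, whose symbols belong to the families Scn (numbered alpha and beta subunits), Cacna1, Cacna2d, Cacnb and Cacng. These were 10 sodium channel alpha subunits, 4 sodium channel beta subunits, 10 pore-forming calcium channel subunits (4 L-type, 3 of the P/Q, N and R types and 3 T-type), 4 alpha2delta, 4 calcium channel beta and 8 gamma subunits. All mice carried Abcb1a-EGFP/Rpl10a (line ES3026, adult, untreated controls), a transgene of a TRAP line, in which a fluorescent tag on the ribosomal protein Rpl10a marks ribosomes of the cells where the Abcb1a driver is active, here brain endothelium. The 9 libraries formed 3 groups of 3: tagged-ribosome RNA immunoprecipitated from cortex homogenate and extracted by investigator ES (ES IP), the same fraction extracted by investigator JL (JL IP), and total cortex RNA extracted by JL (JL input). A single transgenic line was used and all 3 groups carry the transgene, so no library shows what the immunoprecipitation takes from cortex without tagged ribosomes. Nothing in the labels ties the libraries of a group to separate mice, and the p-values therefore cover only the scatter among these libraries, which may be technical.

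A voltage-gated sodium channel is a single large alpha subunit with repeated domains, each with a voltage sensor, joined by small single-pass beta subunits that tune its gating and anchoring. It opens rapidly upon depolarisation and carries the upstroke of the action potential in neurons. Voltage-gated calcium channels share this plan in their alpha1 pore subunit; cytoplasmic beta and extracellular alpha2delta subunits bring high-voltage types to the surface, and most brain gamma subunits serve mainly as partners of AMPA-type glutamate receptors. In cortex these channels trigger transmitter release, dendritic calcium entry and burst firing, whereas endothelial cells are classed as non-excitable.

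Gene counts per library ran from 31987470 to 46598478. Levels are CPM (gene counts scaled to a common library size) with TMM factors, and levels set between genes are CPM per kilobase of annotated exon. Abcb1a, whose regulatory sequence drives the tag, had 55.2, 42.1 and 37.5 CPM in the ES IPs, 451, 491 and 456 CPM in the JL IPs and 1.90, 2.71 and 1.85 CPM in the JL inputs. All 12 endothelial markers were higher than in the JL inputs, with a median log2 fold change of 4.48 in ES IPs and 7.80 in JL IPs. Neuronal RNA was present in every IP: the 10 general neuron markers summed to 18058, 17550.3 and 16304 CPM in the ES IPs, 2015, 2067 and 2565 CPM in the JL IPs and 15321, 15387 and 16112 CPM in the JL inputs. The summed endothelial markers were 1604, 1228 and 947 CPM in the ES IPs, 9791, 9474 and 9803 CPM in the JL IPs and 63.3, 68.9 and 58.8 CPM in the JL inputs. Reads ambiguous between genes made up 2.44 to 2.54% in ES IPs, 2.04 to 2.13% in JL IPs and 10.3 to 11.3% in JL inputs. These are percentages of gene counts, ambiguous reads and reads without a feature together. The ribosomal RNA row Rn45s took 6.04 to 12.03% of gene counts in ES IPs, 15.7 to 17.9% in JL IPs and 4.83 to 5.29% in JL inputs. The part of ambiguous reads and Rn45s in the channel results was not tested. All 3 ES libraries came from 1 sequencing lane and the JL pairs from 3 others, by the lane in their deposited names, so lane, investigator and group cannot be told apart for ES against JL. Among the 27 channel genes with a mean of at least 10 CPM in a group, ES IP replicate 1 was the lowest ES library for 25, and JL IP replicate 3 the highest JL IP for 24. ES IP replicate 1 also had the highest endothelial sum of its group and the lowest sum of the 7 excitatory neuron markers (2349.6, 3869 and 3287 CPM in the ES IPs), of which Camk2a made up 1551, 2705 and 2178 CPM. Its sum of general neuron markers and its level of the excitatory marker Neurod6 (89.0, 84.8 and 77.6 CPM) were the highest of the ES IPs. Snap25 alone made up 12454, 11405 and 10504 CPM of the general neuron sums. In ES IP replicate 1, Snap25, Stmn2 and Syp were at their highest of the ES IPs. Syt1, Rbfox3, Map2, Nefl and Nefm were at their lowest there, with Tubb3 and Eno2 in between. JL IP replicate 3 had the highest excitatory neuron sum of its own (349, 370.3 and 582 CPM). The part of these libraries in the results is given below by values without them.

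The promoter windows of 3 members are shown as examples from the results below. Cacnb1 was the 1 channel gene higher in ES IP than in JL input. Cacnb4 was the most abundant member per kilobase in the JL inputs and lower in both IPs. Scn1a was a sodium channel gene lower in both IPs, though other members had lower log2 fold changes. The sequences are RefSeq windows of GRCm38.p6, 250 bases before to 50 after an annotated start, read 5′ to 3′ on the gene's strand (minus for all 3), with capitals marking the GC box GGGCGG or its reverse complement. Cacnb1 lies at chr11:98022578-98022877, Cacnb4 at chr2:52676094-52676393 and Scn1a at chr2:66440788-66441087.

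Cacnb1: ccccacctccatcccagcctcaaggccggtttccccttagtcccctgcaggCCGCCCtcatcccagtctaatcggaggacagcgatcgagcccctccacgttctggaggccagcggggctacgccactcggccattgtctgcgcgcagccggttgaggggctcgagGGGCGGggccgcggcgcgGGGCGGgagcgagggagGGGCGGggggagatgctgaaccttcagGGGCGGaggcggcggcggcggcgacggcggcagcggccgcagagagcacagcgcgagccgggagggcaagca
Cacnb4: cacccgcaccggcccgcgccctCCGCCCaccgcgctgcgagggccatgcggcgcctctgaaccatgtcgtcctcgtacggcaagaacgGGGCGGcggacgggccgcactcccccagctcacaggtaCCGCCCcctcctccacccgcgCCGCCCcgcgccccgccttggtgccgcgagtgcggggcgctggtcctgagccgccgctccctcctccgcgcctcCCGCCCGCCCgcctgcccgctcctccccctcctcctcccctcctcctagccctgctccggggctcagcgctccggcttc
Scn1a: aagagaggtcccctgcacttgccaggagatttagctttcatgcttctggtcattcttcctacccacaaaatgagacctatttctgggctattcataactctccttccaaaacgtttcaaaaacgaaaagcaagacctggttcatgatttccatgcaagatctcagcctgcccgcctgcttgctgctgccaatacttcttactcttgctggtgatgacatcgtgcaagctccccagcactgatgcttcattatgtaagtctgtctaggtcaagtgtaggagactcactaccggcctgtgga

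The Cacnb1 window held 5 GC boxes and 34 CpG dinucleotides at 73.7% GC, the Cacnb4 window 6 and 40 at 78.3% GC, with 1 overlapping pair of boxes, and the Scn1a window 0 and 5 at 47.3% GC. Other annotated starts differ: a further Cacnb1 window had 59.3% GC and 3 CpG, and further Cacnb4 windows 69.7% and 49.7% GC with 27 and 5 CpG, beside a median of 52.7% over all windows. Windows were found for 30 of the 40 members (41 windows, since several genes have more than 1 start). On either strand, GGGCGG stood in 39.0% of member windows and 35.7% of all 32851 windows, and the E-box CAGCTG, a palindrome, in 31.7% and 16.3%. The TATA box TATAAA stood in 4.88% of member windows and 13.6% of all.

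The first question was which channel transcripts the JL IPs held relative to total cortex RNA. Channel genes were lower in the JL IPs almost without exception: of 35 members tested, 32 fell, 0 rose and 3 did not pass (edgeR's quasi-likelihood test, adjusted p under 0.05), against 37.4% of all tested genes called lower and 36.7% called higher. At an unadjusted p under 0.05 the number higher was 0, and DESeq2 and limma-voom each called 0 higher. All 32 fell by at least 2-fold and 25 by at least 4-fold, and for 33 of 35 every JL IP lay below every JL input, against 42.2% of all tested genes. The share of all tested genes that fell by such folds was not counted. Cacna1f, which is part of each of these numbers, passed the filter on low counts only through the JL inputs. A call of higher was therefore not open to it. Scn7a is also part of each of these numbers. It had counts of 16, 3 and 44 in the JL IPs and 227, 252 and 255 in the JL inputs. Its JL IPs alone would not have passed the filter. The median log2 fold change was -2.27, against -0.09 over all 17357 tested genes, -2.42 over 10 general neuron markers, -2.60 over 7 excitatory and -2.58 over 7 inhibitory neuron markers. For other cells the medians were -2.58 over 7 astrocyte, -2.70 over 7 oligodendrocyte and -2.67 over 7 microglia markers. Summed over the 40 members, the level was 106 ± 22.5 CPM per kilobase in JL IPs and 513 ± 13.2 in JL inputs (mean ± SD, n = 3). The 3 members that did not pass were Cacna1s, Cacna2d4 and Cacng4, all at a mean under 5 CPM in every group. The IPs are a captured fraction and the inputs total RNA. RNA of tagged ribosomes, RNA carried over from other cells and the RNA level per cell cannot be told apart, here and below. Without JL IP replicate 3 the median was -2.47 and 33 of 37 tested members fell, against 32 of 35 with it.

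The second comparison set ES IP against JL IP, the same fraction by a different person, and the third set ES IP against JL input. Channel RNA was higher in the ES IPs: 28 of 34 tested members rose against the JL IPs and 0 fell (background 29.7% higher and 28.2% lower), each of the 28 by at least 2-fold. How many of all tested genes rose by 2-fold was not counted. At an unadjusted p under 0.05, 0 members were lower, and DESeq2 and limma-voom each called 0 lower. The median log2 fold change was 1.66, against 0.03 over 16212 tested genes. Beside it, medians were 2.95 over the general, 2.99 over the excitatory and 2.55 over the inhibitory neuron markers, 2.31 over 7 astrocyte, 1.56 over 7 oligodendrocyte and 1.83 over 7 microglia markers. The median was -3.02 over the 12 endothelial markers. The part of these cell types in the channel values of the comparisons was not tested. Against the JL inputs, 23 of 36 tested members were lower in the ES IPs, 1 was higher and 12 did not pass (background 25.3% lower and 26.9% higher). The median log2 fold change here was -0.76, beside 0.44 for general neuron markers, 0.23 for excitatory and 0.13 for inhibitory neuron markers, -0.27 for 7 astrocyte and -1.20 for 7 oligodendrocyte markers. Of the 10 general neuron markers, 6 were higher and 2 lower in this comparison, from 1.42 ± 0.13 (adjusted p = 9.91e-05) for the neuronal enolase Eno2 to -1.25 ± 0.22 (adjusted p = 0.00197) for the dendritic protein Map2. Without ES IP replicate 1 the median of the channel genes was -0.61, with 27 lower and 2 higher of 38 tested, against 23 and 1 of 36 with it. In 1 fit of all 9 libraries, 19 were lower: Cacna1i, Cacna2d2, Cacng4, Cacng7 and Scn7a did not pass (adjusted p from 0.0577 to 0.196) and Cacna1a did (adjusted p = 0.0474). The 3 comparisons share libraries, so their values are set side by side and are not independent.

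Per kilobase of exon, Scn2b stood at 43.8 ± 4.59, Cacnb4 at 39.2 ± 7.79 and Cacnb3 at 34.1 ± 1.45 CPM per kilobase in the ES IPs (mean ± SD, n = 3). In their libraries, Scn2b overlapped Cacnb4 and Cacnb4 overlapped Cacnb3, and a gap without overlap set them above Cacnb1 at 23.4 ± 2.64. In the JL IPs Cacnb3 stood at 10.8 ± 3.02, Scn2b at 10.1 ± 0.918 and Cacnb4 at 8.55 ± 0.509 CPM per kilobase, with overlap from each to the next. In the JL inputs Cacnb4 was highest of all channel genes at 82.7 ± 0.705, with no overlap with any other, above Scn2b at 44.3 ± 2.41 and Cacng3 at 37.4 ± 2.87 CPM per kilobase.

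**Figure D1:**
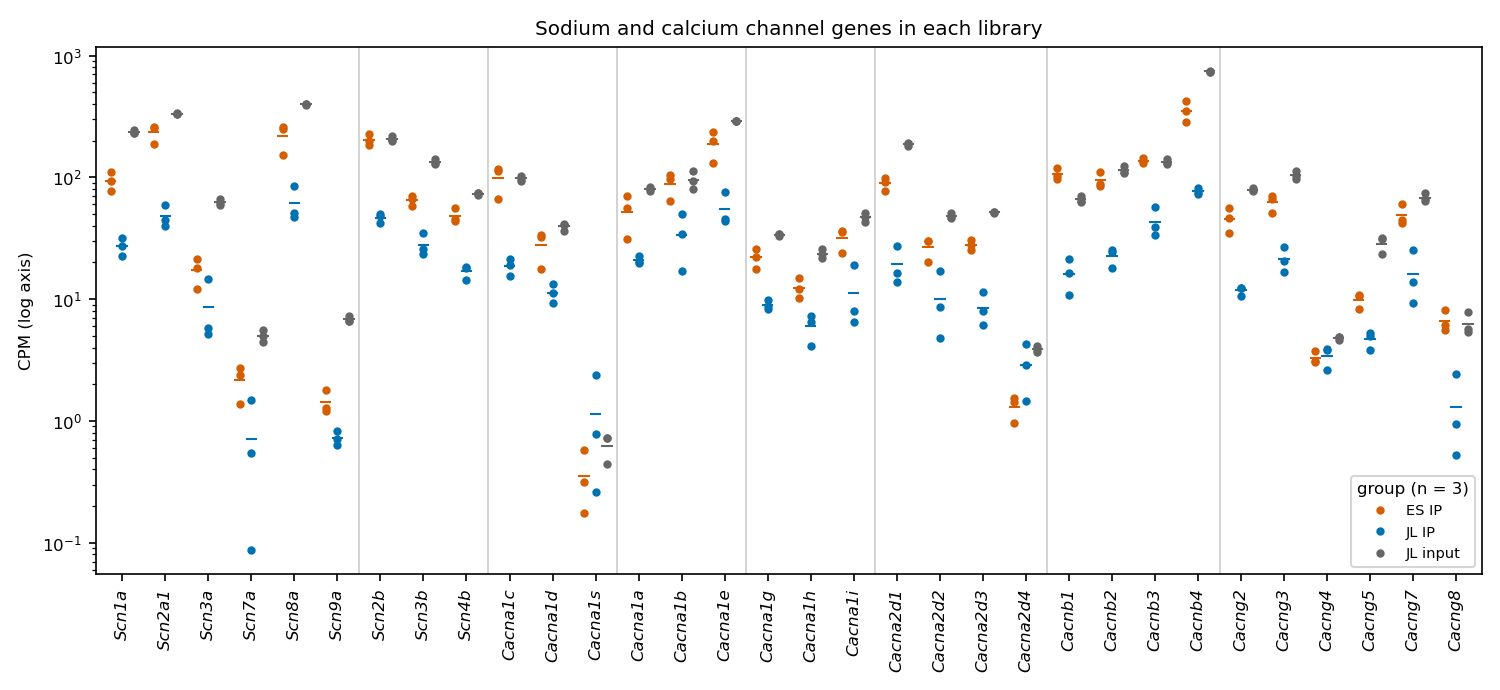
CPM of the channel genes reported here with a mean of at least 1 CPM in a group (log axis), by subfamily, in ES IP, JL IP and JL input; points are libraries and bars the means of 3. Apart from the low genes Cacna1s and Cacna2d4, JL IP points lie below JL input points, and Cacnb1 has its highest points in the ES IPs, at 96.8, 119.7 and 102 CPM.

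**Figure D2:**
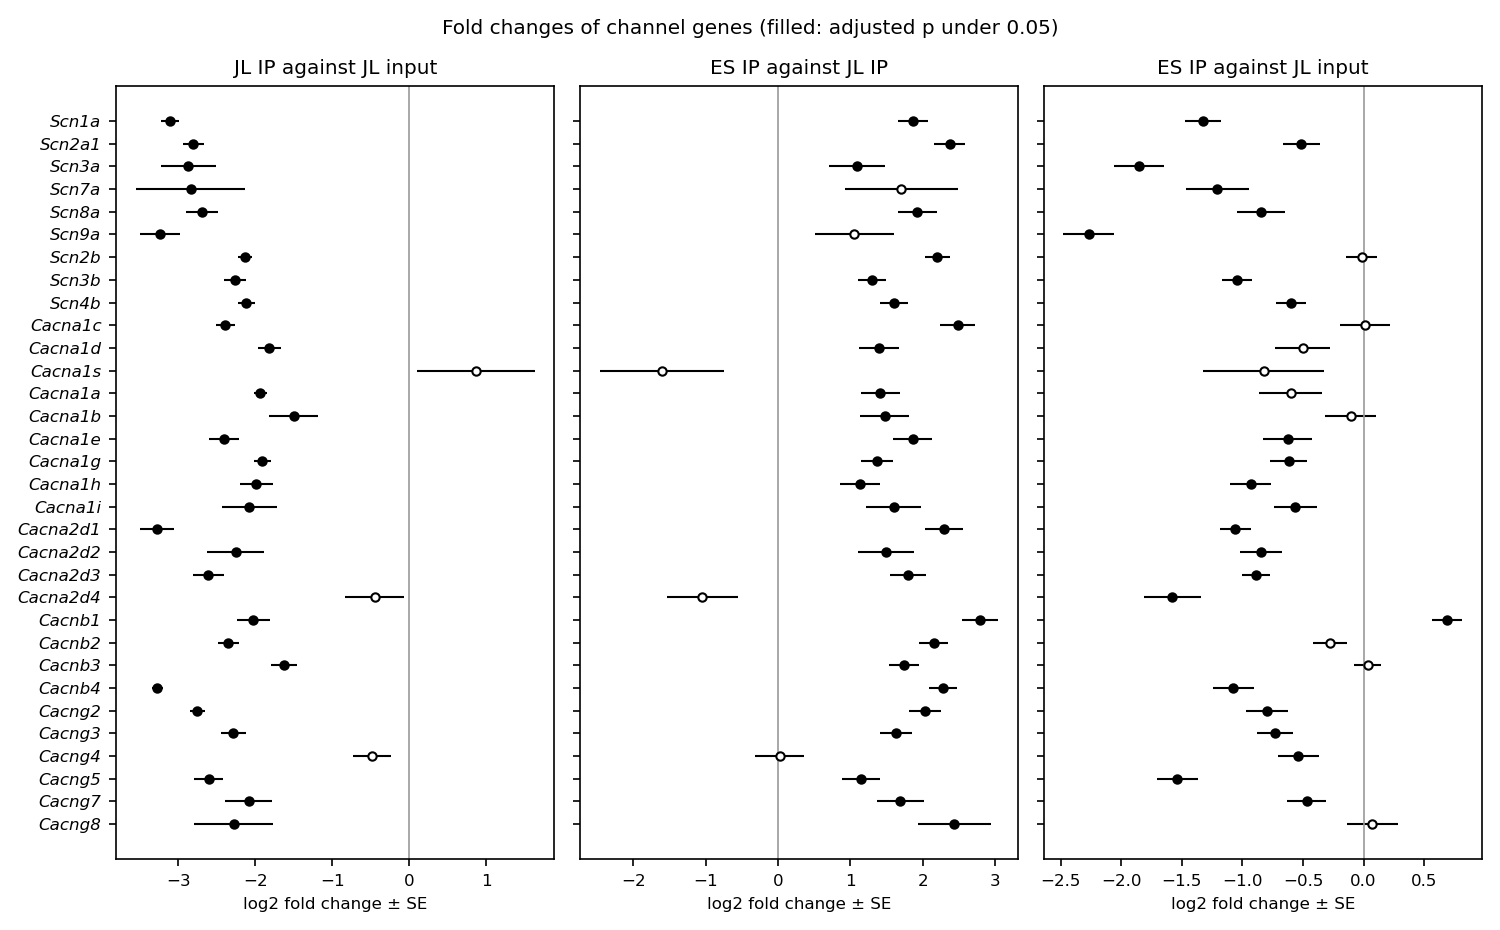
Log2 fold change ± standard error of the same genes in the 3 comparisons, each with its own axis; filled points have an adjusted p under 0.05 and open points do not. Filled points lie left of 0 for JL IP against JL input and right of 0 for ES IP against JL IP, and Cacnb1 is the only filled point right of 0 for ES IP against JL input (0.69 ± 0.12).

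Sodium channel alpha subunits had the lowest median of the subfamilies in the JL IPs. All 7 tested fell (median log2 fold change -2.84, beside -2.13 for the 4 beta subunits), 4 rose in ES IP against JL IP, and 7 of 8 were lower in ES IP than in JL input. Scn8a encodes Nav1.6, the channel of nodes of Ranvier and the axon initial segment. It had 154, 259 and 249 CPM in the ES IPs, 51.3, 47.2 and 85.7 CPM in the JL IPs and 399, 395 and 399 CPM in the JL inputs. For Scn8a, the log2 fold change of JL IP over JL input was -2.70 ± 0.21 (adjusted p = 4.15e-06), that of ES IP over JL IP 1.93 ± 0.28 (adjusted p = 1.27e-04) and that of ES IP over JL input -0.85 ± 0.20 (adjusted p = 0.00798). The 3 groups did not overlap, with the ES IPs in between. Scn2a (listed as Scn2a1) encodes Nav1.2, which is prominent in excitatory neurons. It had 188, 261 and 253 CPM in the ES IPs, 40.0, 44.4 and 58.9 CPM in the JL IPs and 332, 332 and 339.6 CPM in the JL inputs. Scn2a had log2 fold changes of -2.81 ± 0.14 (adjusted p = 2.25e-07) for JL IP over JL input, 2.37 ± 0.21 (adjusted p = 4.52e-06) for ES IP over JL IP and -0.52 ± 0.15 (adjusted p = 0.0214) for ES IP over JL input. Its groups did not overlap either. The call against JL input ended without any 1 of the 3 inputs (adjusted p 0.0652, 0.0721 and 0.0736 without replicates 1, 2 and 3). Scn1a encodes Nav1.1, known for its role in parvalbumin interneurons. It had 77.3, 111 and 92.8 CPM in the ES IPs, 22.5, 27.4 and 31.7 CPM in the JL IPs and 244, 230.2 and 231 CPM in the JL inputs. For Scn1a, the log2 fold change of JL IP over JL input was -3.11 ± 0.12 (adjusted p = 6.29e-08), that of ES IP over JL IP 1.86 ± 0.20 (adjusted p = 1.78e-05) and that of ES IP over JL input -1.33 ± 0.15 (adjusted p = 2.51e-04). All ES libraries lay between the other groups. Scn3a encodes Nav1.3, which is most abundant before birth. It had 12.1, 21.5 and 18.0 CPM in the ES IPs, 5.14, 5.74 and 14.7 CPM in the JL IPs and 59.1, 61.5 and 66.2 CPM in the JL inputs. Scn3a had log2 fold changes of -2.87 ± 0.36 (adjusted p = 1.00e-04) for JL IP over JL input, 1.09 ± 0.39 (adjusted p = 0.0328) for ES IP over JL IP and -1.85 ± 0.20 (adjusted p = 2.02e-04) for ES IP over JL input. JL IP replicate 3 overlapped the ES IPs. Without it, the log2 fold change of JL IP over JL input was -3.50 and that of ES IP over JL IP 1.74; the call of ES IP over JL IP ended without ES IP replicate 2, ES IP replicate 3, JL IP replicate 1 or JL IP replicate 2 (adjusted p 0.111, 0.0684, 0.104 and 0.121).

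The other alpha subunits were scarce. Scn9a, the nociceptor channel Nav1.7, had 1.20, 1.27 and 1.78 CPM in the ES IPs, 0.822, 0.638 and 0.708 CPM in the JL IPs and 7.26, 6.60 and 6.65 CPM in the JL inputs, and no IP reached an input. Its log2 fold change was -3.24 ± 0.26 (adjusted p = 6.14e-06) for JL IP over JL input and -2.27 ± 0.21 (adjusted p = 8.82e-05) for ES IP over JL input, while ES IP over JL IP did not pass (1.05 ± 0.55, adjusted p = 0.121) except in the fit of all 9 libraries (0.97, adjusted p = 0.0135). Among called members, no other had as low a value in ES IP against JL input. Scn7a, an atypical sodium-sensing channel of glia, had 2.73, 2.40 and 1.38 CPM in the ES IPs, 0.548, 0.0870 and 1.48 CPM in the JL IPs and 4.45, 5.03 and 5.54 CPM in the JL inputs, again below all inputs in both IPs. The log2 fold change of Scn7a was -2.84 ± 0.71 (adjusted p = 0.00611) for JL IP and -1.21 ± 0.26 (adjusted p = 0.0053) for ES IP over JL input, and ES IP over JL IP did not pass (1.70 ± 0.78, adjusted p = 0.0833), although it did by DESeq2 (adjusted p = 0.0428) and limma-voom (adjusted p = 0.0205). JL IP replicate 2 held 3 counts of it and replicate 3 held 44; without replicate 3 the JL IP value was -4.01. Scn4a, the skeletal muscle channel, and Scn10a and Scn11a, channels of sensory neurons, were near the floor. Scn4a had 0 or 1 count in each IP and at most 3 in an input, Scn10a had counts of 0, 20 and 0 in ES IPs, 0, 0 and 5 in JL IPs, 19, 9 and 3 in JL inputs, and Scn11a had counts of 11, 0 and 3 in ES IPs, 0, 1 and 0 in JL IPs, 9, 12 and 14 in JL inputs.

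As shares of the summed sodium alpha level per kilobase, Scn2a held 44.6, 41.5 and 43.3% in ES IPs, 34.8, 36.4 and 31.9% in JL IPs and 32.7, 33.2 and 33.4% in JL inputs. ES libraries were above both other groups in this share. Scn1a held 21.0, 20.1 and 18.1% in ES IPs, 22.4, 25.6 and 19.6% in JL IPs and 27.4, 26.3 and 25.9% in JL inputs, with both IPs below the inputs. Scn3a held 2.94, 3.49 and 3.15% in ES IPs, 4.57, 4.80 and 8.15% in JL IPs and 5.95, 6.29 and 6.66% in JL inputs, so that the ES IPs were lowest and the JL IPs overlapped the inputs. Scn8a held 29.5, 33.3 and 34.4% in ES IPs, 36.1, 31.2 and 37.5% in JL IPs and 31.8, 31.9 and 31.7% in JL inputs, and these ranges overlapped. Shares within a library do not depend on its scaling, but they were not tested.

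The 4 sodium channel beta subunits fell in the JL IPs and rose in ES IP against JL IP. Scn2b encodes beta2, which is disulfide-linked to the alpha subunit. It had 185, 199 and 227 CPM in the ES IPs, 42.0, 50.3 and 48.0 CPM in the JL IPs and 219, 201 and 198 CPM in the JL inputs. For Scn2b, the log2 fold change of JL IP over JL input was -2.14 ± 0.09 (adjusted p = 8.94e-08), that of ES IP over JL IP 2.20 ± 0.17 (adjusted p = 1.95e-06) and that of ES IP over JL input -0.02 ± 0.13 (adjusted p = 0.927). ES IPs and inputs overlapped. Scn3b encodes beta3, a noncovalently bound subunit. It had 58.0, 66.5 and 70.6 CPM in the ES IPs, 25.7, 23.3 and 34.8 CPM in the JL IPs and 129.6, 132 and 142 CPM in the JL inputs. Scn3b had log2 fold changes of -2.27 ± 0.14 (adjusted p = 1.18e-06) for JL IP over JL input, 1.30 ± 0.20 (adjusted p = 2.11e-04) for ES IP over JL IP and -1.05 ± 0.12 (adjusted p = 2.81e-04) for ES IP over JL input. Scn4b encodes beta4, known for resurgent sodium current. It had 43.9, 45.9 and 55.7 CPM in the ES IPs, 14.4, 18.0 and 18.4 CPM in the JL IPs and 74.1, 72.2 and 74.3 CPM in the JL inputs. For Scn4b, the log2 fold change of JL IP over JL input was -2.12 ± 0.11 (adjusted p = 3.30e-07), that of ES IP over JL IP 1.60 ± 0.19 (adjusted p = 3.71e-05) and that of ES IP over JL input -0.60 ± 0.13 (adjusted p = 0.00479). For both Scn3b and Scn4b the ES IPs lay between the JL IPs and the inputs with no overlap. Summed per kilobase, the beta subunits stood at 114 ± 5.89 in ES IPs, 34.7 ± 4.87 in JL IPs and 129 ± 0.450 in JL inputs, in CPM per kilobase (mean ± SD, n = 3). The alpha subunits stood at 42.8 ± 8.58 in ES IPs, 11.04 ± 3.02 in JL IPs and 79.3 ± 0.750 in JL inputs. The ES IPs thus held 88.5% of the input level for beta and 53.9% for alpha subunits; the difference between the subfamilies was not tested.

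All 3 presynaptic pore subunits fell in the JL IPs and rose in ES IP against JL IP, and 1 of them, Cacna1e, was lower in ES IP than in JL input. Cacna1e encodes the R-type pore. It had 131, 234 and 200.1 CPM in the ES IPs, 45.9, 43.5 and 75.3 CPM in the JL IPs and 290.2, 291 and 293 CPM in the JL inputs. Cacna1e had log2 fold changes of -2.41 ± 0.19 (adjusted p = 5.50e-06) for JL IP over JL input, 1.86 ± 0.27 (adjusted p = 1.43e-04) for ES IP over JL IP and -0.63 ± 0.20 (adjusted p = 0.0305) for ES IP over JL input. The ES IPs lay between the other groups, and the call against input ended without ES IP replicate 3 or any 1 input (adjusted p from 0.0524 to 0.0841). Cacna1b encodes the N-type pore, a main route of calcium entry at nerve terminals. It had 63.7, 105 and 96.7 CPM in the ES IPs, 17.2, 34.2 and 49.6 CPM in the JL IPs and 93.7, 79.6 and 112 CPM in the JL inputs. For Cacna1b, the log2 fold change of JL IP over JL input was -1.50 ± 0.32 (adjusted p = 0.00259), that of ES IP over JL IP 1.48 ± 0.34 (adjusted p = 0.00316) and that of ES IP over JL input -0.10 ± 0.21 (adjusted p = 0.697). ES IPs and inputs overlapped for Cacna1b, and JL IP replicate 1 was the lowest library. Cacna1a encodes the P/Q-type pore, the other main channel of transmitter release. It had 31.3, 70.4 and 55.6 CPM in the ES IPs, 19.9, 20.3 and 22.5 CPM in the JL IPs and 76.9, 79.8 and 82.6 CPM in the JL inputs. Cacna1a had log2 fold changes of -1.93 ± 0.09 (adjusted p = 1.52e-07) for JL IP over JL input, 1.41 ± 0.27 (adjusted p = 9.76e-04) for ES IP over JL IP and -0.60 ± 0.26 (adjusted p = 0.0789) for ES IP over JL input. All ES IPs were below all inputs for Cacna1a, although the test did not pass. It passed by DESeq2 (adjusted p = 0.0433), with library size alone (adjusted p = 0.0405) or with the replicate block (adjusted p = 0.0263), and also without ES IP replicate 1 (-0.33, adjusted p = 0.019) or replicate 2 (-0.86, adjusted p = 0.0235). The antisense gene Gm16183 overlaps Cacna1a exons over 435 bases, and without strand the reads of such a pair cannot be told apart. The same holds for Cacna1d, Cacna1h, Cacna1s, Cacna2d2, Cacnb1, Cacnb2, Cacnb4, Cacng2 and Scn9a, over 80 bases in Cacnb1 and 1433 in Cacnb4; Cacng8 holds a miRNA gene on its own strand.

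Of the 4 L-type pore subunits, Cacna1c, Cacna1d and the scarce Cacna1f fell in the JL IPs, and Cacna1c and Cacna1d rose in ES IP against JL IP. ES IP against JL input did not pass for any in edgeR's fit of the 2 groups, but each passed in some of the alternatives given below. Cacna1c encodes Cav1.2, the L-type channel of neuronal dendrites, heart and vascular smooth muscle. It had 67.0, 113 and 117 CPM in the ES IPs, 15.5, 19.1 and 21.6 CPM in the JL IPs and 93.7, 97.9 and 104 CPM in the JL inputs. For Cacna1c, the log2 fold change of JL IP over JL input was -2.39 ± 0.12 (adjusted p = 3.29e-07), that of ES IP over JL IP 2.48 ± 0.25 (adjusted p = 9.28e-06) and that of ES IP over JL input 0.01 ± 0.21 (adjusted p = 0.974). ES IPs and inputs overlapped. Without ES IP replicate 1 the test against input passed at 0.24 (adjusted p = 0.0218), which made it the other of the 2 members then called higher. Smooth muscle markers were mixed in the JL IPs: of 7, 2 rose, 2 fell and 3 did not pass, and their sum ranged from 86.4 to 106 CPM in the JL IPs and from 26.2 to 29.0 CPM in the JL inputs. The myosin kinase Mylk alone made up 70.5, 76.6 and 72.4 CPM of the JL IP sums and 12.6, 14.9 and 14.9 CPM of the JL input sums. Cacna1d encodes Cav1.3, which opens at lower voltages. It had 17.8, 33.5 and 32.5 CPM in the ES IPs, 11.3, 9.22 and 13.3 CPM in the JL IPs and 36.5, 40.9 and 41.5 CPM in the JL inputs. Cacna1d had log2 fold changes of -1.82 ± 0.15 (adjusted p = 6.49e-06) for JL IP over JL input, 1.40 ± 0.27 (adjusted p = 0.00115) for ES IP over JL IP and -0.50 ± 0.23 (adjusted p = 0.0966) for ES IP over JL input. Its ES IPs lay below all inputs. The test passed without ES IP replicate 1 (-0.25, adjusted p = 0.0273), with library size alone (-0.62, adjusted p = 0.0477) and with the replicate block (-0.56, adjusted p = 0.0306). Cacna1f, the L-type channel of the retina, had counts of 0, 13 and 2 in ES IPs, 1, 0 and 0 in JL IPs, 21, 33 and 19 in JL inputs. It passed the filter on low counts only through the JL inputs, so a call of higher was not open to it. Its test of ES IP against JL input passed by limma-voom (-3.06, adjusted p = 0.0235) and with the replicate block (-2.57, adjusted p = 0.0391). It also passed without ES IP replicate 2 (-4.26, adjusted p = 0.00871). Cacna1s, the L-type channel of skeletal muscle, had counts of 24, 8 and 14 in ES IPs, 23, 9 and 71 in JL IPs, 37, 22 and 33 in JL inputs. Cacna1s did not pass for JL IP against JL input (0.86 ± 0.76, adjusted p = 0.329), and its sign turned without JL IP replicate 3 (-0.26). Its exons overlap those of Gm37759 over 1309 bases. For ES IP against JL IP, Cacna1s passed without JL IP replicate 2 (-2.08, adjusted p = 0.04996), and for ES IP against JL input without ES IP replicate 1 (-1.33, adjusted p = 0.0393).

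T-type channels open near the resting potential and support burst firing. All 3 fell in the JL IPs, rose in ES IP against JL IP and were lower in ES IP than in JL input. Cacna1i encodes Cav3.3. It had 23.8, 36.6 and 35.7 CPM in the ES IPs, 6.50, 7.92 and 19.2 CPM in the JL IPs and 43.1, 47.6 and 51.3 CPM in the JL inputs. For Cacna1i, the log2 fold change of JL IP over JL input was -2.08 ± 0.36 (adjusted p = 7.41e-04), that of ES IP over JL IP 1.60 ± 0.37 (adjusted p = 0.00366) and that of ES IP over JL input -0.56 ± 0.18 (adjusted p = 0.0286). JL IP replicate 3 was the highest of its group; without it the log2 fold change of JL IP over JL input was -2.70 and that of ES IP over JL IP 2.23. The call of ES IP against JL input ended without input replicate 2 or 3 (adjusted p 0.0828 and 0.0988). Cacna1g encodes Cav3.1. It had 17.8, 26.0 and 22.2 CPM in the ES IPs, 8.80, 8.35 and 9.85 CPM in the JL IPs and 34.0, 32.8 and 34.5 CPM in the JL inputs. Cacna1g had log2 fold changes of -1.91 ± 0.12 (adjusted p = 9.55e-07) for JL IP over JL input, 1.37 ± 0.22 (adjusted p = 2.77e-04) for ES IP over JL IP and -0.62 ± 0.15 (adjusted p = 0.00983) for ES IP over JL input. Cacna1h encodes Cav3.2. It had 10.1, 14.9 and 12.1 CPM in the ES IPs, 6.50, 4.12 and 7.32 CPM in the JL IPs and 21.6, 23.4 and 25.9 CPM in the JL inputs. For Cacna1h, the log2 fold change of JL IP over JL input was -1.99 ± 0.22 (adjusted p = 4.07e-05), that of ES IP over JL IP 1.14 ± 0.28 (adjusted p = 0.00507) and that of ES IP over JL input -0.93 ± 0.17 (adjusted p = 0.00226). For Cacna1g and Cacna1h the groups did not overlap.

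The alpha2delta subunits, extracellular proteins that aid channel trafficking and synapse formation, were lower in ES IP than in JL input for all 4, and 3 of 4 fell in the JL IPs. Cacna2d1, a target of gabapentin, had 77.8, 99.8 and 91.2 CPM in the ES IPs, 13.9, 16.5 and 27.5 CPM in the JL IPs and 182, 187 and 190.5 CPM in the JL inputs. Cacna2d1 had log2 fold changes of -3.27 ± 0.22 (adjusted p = 2.00e-06) for JL IP over JL input, 2.30 ± 0.26 (adjusted p = 2.16e-05) for ES IP over JL IP and -1.06 ± 0.13 (adjusted p = 3.42e-04) for ES IP over JL input. The groups did not overlap. Cacna2d3, a subunit known from hearing and pain pathways, had 27.7, 30.7 and 25.4 CPM in the ES IPs, 8.01, 6.09 and 11.4 CPM in the JL IPs and 52.3, 50.9 and 52.1 CPM in the JL inputs. For Cacna2d3, the log2 fold change of JL IP over JL input was -2.61 ± 0.20 (adjusted p = 4.68e-06), that of ES IP over JL IP 1.80 ± 0.25 (adjusted p = 1.00e-04) and that of ES IP over JL input -0.89 ± 0.11 (adjusted p = 4.19e-04). Cacna2d2, the other gabapentin-binding subunit, had 20.2, 30.3 and 30.0 CPM in the ES IPs, 4.79, 8.67 and 16.9 CPM in the JL IPs and 46.9, 46.7 and 51.4 CPM in the JL inputs. Cacna2d2 had log2 fold changes of -2.26 ± 0.37 (adjusted p = 5.43e-04) for JL IP over JL input, 1.49 ± 0.39 (adjusted p = 0.00653) for ES IP over JL IP and -0.85 ± 0.17 (adjusted p = 0.00381) for ES IP over JL input. For both, the ES IPs lay between the JL IPs and the inputs. Cacna2d4, known for its role in photoreceptors, had another order of groups. It had 0.959, 1.42 and 1.54 CPM in the ES IPs, 4.25, 1.45 and 2.90 CPM in the JL IPs and 3.71, 4.11 and 3.91 CPM in the JL inputs, and here the ES IPs were the lowest group, with JL IP replicate 2 within their range. For Cacna2d4, the log2 fold change of JL IP over JL input was -0.45 ± 0.38 (adjusted p = 0.313), that of ES IP over JL IP -1.04 ± 0.49 (adjusted p = 0.0918) and that of ES IP over JL input -1.58 ± 0.23 (adjusted p = 9.09e-04). Without JL IP replicate 2, ES IP over JL IP was -1.37 (adjusted p = 0.0277), and Cacna2d4 and Cacna1s were then the 2 members called lower in the ES IPs.

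The calcium channel beta subunits bind the pore's cytoplasmic loop and bring it to the membrane. All 4 fell in the JL IPs and rose in ES IP against JL IP, but against JL input the ES IPs held 1 higher, 1 lower and 2 that did not pass. Cacnb1, known as the beta subunit of skeletal muscle and also expressed in brain, lies at chr11:98001508-98023034 in mm10 with exons of 4.53 kilobases in all. It had 96.8, 119.7 and 102 CPM in the ES IPs, 16.3, 10.8 and 21.5 CPM in the JL IPs and 63.1, 64.4 and 70.0 CPM in the JL inputs. Cacnb1 had log2 fold changes of -2.03 ± 0.22 (adjusted p = 3.59e-05) for JL IP over JL input, 2.80 ± 0.25 (adjusted p = 4.45e-06) for ES IP over JL IP and 0.69 ± 0.12 (adjusted p = 0.00225) for ES IP over JL input. All ES IPs lay above all inputs, and all JL IPs below them. The direction and call against the JL inputs were the same under each alternative fit and without each library in turn. Cacnb4, a main beta subunit of brain, lies at chr2:52428320-52676831. It had 283, 349 and 422 CPM in the ES IPs, 76.0, 72.4 and 81.5 CPM in the JL IPs and 739.6, 736 and 748 CPM in the JL inputs. For Cacnb4, the log2 fold change of JL IP over JL input was -3.27 ± 0.07 (adjusted p = 3.29e-09), that of ES IP over JL IP 2.28 ± 0.19 (adjusted p = 3.21e-06) and that of ES IP over JL input -1.08 ± 0.17 (adjusted p = 0.00113). All ES IPs lay between the JL IPs and the inputs, and its call and direction in each comparison were kept without any 1 library. Cacnb3, another beta subunit of brain, had 132, 135 and 143 CPM in the ES IPs, 39.0, 33.7 and 56.8 CPM in the JL IPs and 128, 131 and 142 CPM in the JL inputs. Cacnb3 had log2 fold changes of -1.63 ± 0.17 (adjusted p = 3.47e-05) for JL IP over JL input, 1.75 ± 0.21 (adjusted p = 3.34e-05) for ES IP over JL IP and 0.04 ± 0.11 (adjusted p = 0.807) for ES IP over JL input. Cacnb2, a beta subunit of heart and brain, had 85.0, 88.0 and 109.9 CPM in the ES IPs, 24.2, 18.0 and 25.2 CPM in the JL IPs and 109, 112 and 123 CPM in the JL inputs. For Cacnb2, the log2 fold change of JL IP over JL input was -2.35 ± 0.13 (adjusted p = 5.95e-07), that of ES IP over JL IP 2.15 ± 0.20 (adjusted p = 5.71e-06) and that of ES IP over JL input -0.28 ± 0.14 (adjusted p = 0.124). ES IPs and inputs overlapped for Cacnb3 and Cacnb2. For Cacnb2 the test against input passed without ES IP replicate 3 (-0.39, adjusted p = 0.0254) and with library size alone (-0.39, adjusted p = 0.0435).

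The make-up of the beta subunits differed between the IPs and the inputs. Cacnb4 held 34.2, 36.8 and 41.5% of their summed level per kilobase in the ES IPs, 35.9, 39.9 and 30.4% in JL IPs and 60.4, 59.7 and 58.1% in JL inputs, so both IPs lay below every input. Cacnb3 held 35.6, 31.9 and 31.4% in ES IPs, 41.1, 41.6 and 47.4% in JL IPs and 23.3, 23.8 and 24.6% in JL inputs, above every input in both IPs. Cacnb1 held 23.2, 24.98 and 19.8% in ES IPs, 15.3, 11.7 and 15.8% in JL IPs and 10.2, 10.3 and 10.8% in JL inputs, and these 3 sets did not overlap. These shares were not tested.

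**Figure D3:**
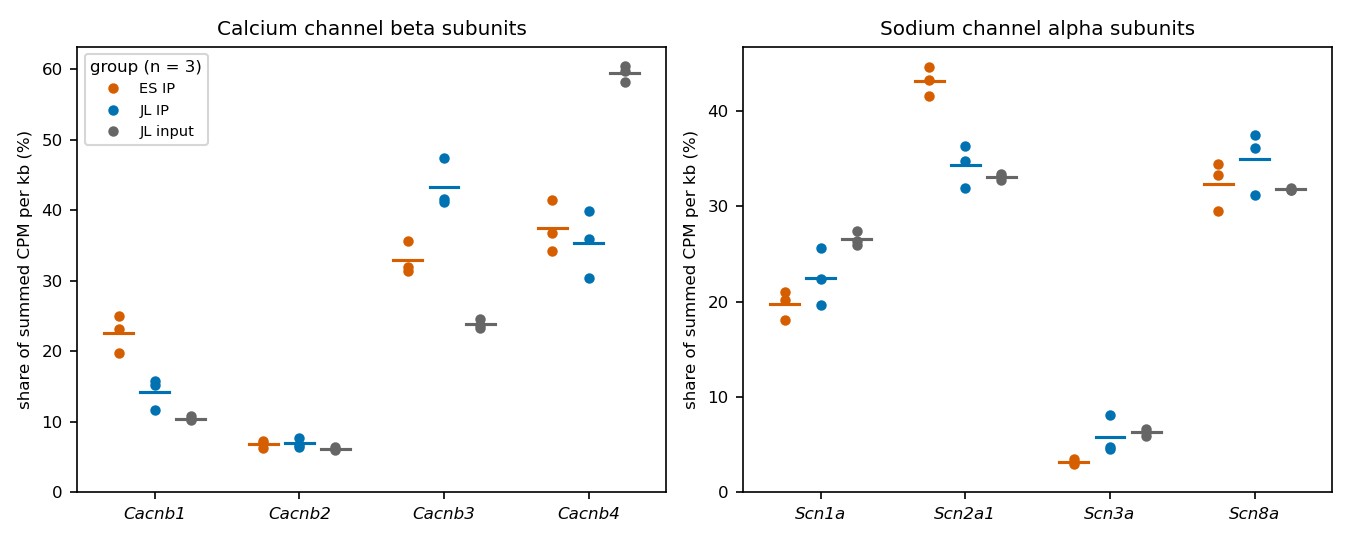
Share of each gene in the summed CPM per kilobase of the 4 calcium channel beta subunits (left) and of the 10 sodium channel alpha subunits (right, genes above 2% of the inputs), by library, with group means as bars. Cacnb4 holds 37.5% in ES IPs, 35.4% in JL IPs and 59.4% in JL inputs on average.

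Of 8 gamma subunits, 6 were tested in each comparison; 5 fell in the JL IPs, 5 rose in ES IP against JL IP and 5 were lower in ES IP than in JL input. Cacng3 encodes a TARP, an auxiliary subunit that brings AMPA receptors to synapses. It had 51.1, 66.8 and 70.0 CPM in the ES IPs, 20.6, 16.6 and 26.8 CPM in the JL IPs and 96.2, 103 and 112 CPM in the JL inputs. Cacng3 had log2 fold changes of -2.29 ± 0.16 (adjusted p = 2.60e-06) for JL IP over JL input, 1.64 ± 0.22 (adjusted p = 8.80e-05) for ES IP over JL IP and -0.73 ± 0.15 (adjusted p = 0.00413) for ES IP over JL input. Cacng2, stargazin, is the founding TARP. It had 34.8, 46.2 and 56.1 CPM in the ES IPs, 12.4, 10.6 and 12.4 CPM in the JL IPs and 78.4, 77.7 and 82.4 CPM in the JL inputs. For Cacng2, the log2 fold change of JL IP over JL input was -2.75 ± 0.10 (adjusted p = 4.07e-08), that of ES IP over JL IP 2.04 ± 0.22 (adjusted p = 1.70e-05) and that of ES IP over JL input -0.80 ± 0.18 (adjusted p = 0.00571). Cacng7, a type II TARP, had 41.8, 44.9 and 60.5 CPM in the ES IPs, 9.28, 13.7 and 25.2 CPM in the JL IPs and 63.4, 66.9 and 74.0 CPM in the JL inputs. Cacng7 had log2 fold changes of -2.09 ± 0.30 (adjusted p = 2.78e-04) for JL IP over JL input, 1.69 ± 0.33 (adjusted p = 0.00109) for ES IP over JL IP and -0.47 ± 0.16 (adjusted p = 0.0383) for ES IP over JL input. ES IPs lay between the other groups for all 3. The call of Cacng7 against JL input ended without ES IP replicate 2 (adjusted p 0.104) or any 1 input (adjusted p from 0.0676 to 0.13). Cacng5, the other type II TARP, had 8.29, 10.5 and 10.8 CPM in the ES IPs, 5.27, 3.80 and 5.03 CPM in the JL IPs and 23.4, 30.9 and 31.6 CPM in the JL inputs. For Cacng5, the log2 fold change of JL IP over JL input was -2.61 ± 0.19 (adjusted p = 2.86e-06), that of ES IP over JL IP 1.15 ± 0.26 (adjusted p = 0.00305) and that of ES IP over JL input -1.54 ± 0.17 (adjusted p = 2.28e-04). Cacng8, a TARP prominent in hippocampus, had 8.18, 6.12 and 5.63 CPM in the ES IPs, 2.43, 0.522 and 0.944 CPM in the JL IPs and 5.38, 7.88 and 5.65 CPM in the JL inputs. Its log2 fold change was -2.28 ± 0.52 (adjusted p = 0.00357) for JL IP over JL input and 2.44 ± 0.51 (adjusted p = 0.00173) for ES IP over JL IP, and without JL IP replicate 1 these were -3.11 and 3.26. ES IPs and inputs overlapped, and ES IP over JL input was 0.07 ± 0.21 (adjusted p = 0.792). Cacng4, also a TARP, had 3.76, 3.10 and 3.07 CPM in the ES IPs, 2.64, 3.89 and 3.81 CPM in the JL IPs and 4.61, 4.91 and 4.91 CPM in the JL inputs, and ES IPs and JL IPs overlapped. Cacng4 had log2 fold changes of -0.48 ± 0.25 (adjusted p = 0.109) for JL IP over JL input, 0.02 ± 0.34 (adjusted p = 0.961) for ES IP over JL IP and -0.54 ± 0.17 (adjusted p = 0.026) for ES IP over JL input. The call against input ended without ES IP replicate 2 or 3 or any 1 input (adjusted p from 0.0626 to 0.0928). Cacng1, a muscle subunit, and Cacng6 were not tested: Cacng1 had counts of 0, 2 and 9 in ES IPs, 3, 10 and 1 in JL IPs, 9, 14 and 9 in JL inputs, and Cacng6 counts of 2, 18 and 4 in ES IPs, 0, 0 and 2 in JL IPs, 5, 14 and 9 in JL inputs.

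Several members lie beside each other in the genome. On chromosome 2, Scn3a, Scn2a, Scn1a, Scn9a and Scn7a follow each other between 65457118 and 66784914 (mm10), and their mean input levels ran from 5.01 CPM for Scn7a to 335 CPM for Scn2a. All 5 fell in the JL IPs and were lower in ES IP than in JL input. Scn10a and Scn11a lie at 119608456 to 119825456 on chromosome 9, where both were scarce, and Scn2b and Scn4b at 45117782 to 45154152 on the same chromosome. Cacng7, Cacng8 and Cacng6 lie at 3332955 to 3435667 on chromosome 7, and their input means were 68.1, 6.30 and 0.191 CPM. Cacng1, Cacng4 and Cacng5 lie at 107703218 to 107915055 on chromosome 11, with input means of 0.217, 4.81 and 28.6 CPM. Across the 35 tested members, the log2 fold change of JL IP over JL input had a Spearman correlation of -0.34 with exon length, beside -0.10 across 15756 tested genes with a length; for ES IP over JL input it was -0.24 across 36 members and -0.08 across 15828 genes. Genes of a library share its depth and are not independent.

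Of 12 genes listed as sodium channel partners (Ank3, Sptbn4, Nfasc, Nrcam, Cntn1 and Cntn2 of the axon initial segment and node, Fgf11, Fgf12, Fgf13 and Fgf14, the ubiquitin ligase Nedd4l and the secreted growth factor Fgf9) all fell in the JL IPs, from -3.08 ± 0.23 (adjusted p = 3.71e-06) for the adhesion molecule Nrcam to -1.28 ± 0.19 (adjusted p = 2.89e-04) for Fgf11, a fibroblast growth factor homologous factor that stays in the cell. All 12 rose in ES IP against JL IP, and against JL input 6 were lower in the ES IPs and 6 did not pass. Ank3, the ankyrin that anchors the channels, had 222, 699 and 399.9 CPM in the ES IPs, 54.3, 50.9 and 105 CPM in the JL IPs and 354, 356 and 342 CPM in the JL inputs. Of 13 tested partners, inhibitors and ligands of calcium channel subunits, 8 fell in the JL IPs and 3 rose. Over all tested genes, 37.4% were called lower and 36.7% higher in this comparison. The shares were 25.3% lower and 26.9% higher in ES IP against JL input, and 28.2% lower and 29.7% higher in ES IP against JL IP. The extremes were the thrombospondins, secreted proteins that bind alpha2delta: Thbs4 at -3.89 ± 0.64 (adjusted p = 5.70e-04) and Thbs1 at 2.29 ± 0.32 (adjusted p = 1.96e-04). The others that rose were Cachd1, an alpha2delta-like protein (1.03 ± 0.11, adjusted p = 4.52e-05), and Gem, a small GTPase that inhibits calcium channels (0.79 ± 0.31, adjusted p = 0.0462). Calmodulin and CaMKII genes, which act on both channel families, fell in the JL IPs for 7 of 7, with Camk2a lowest at -2.60 ± 0.22 (adjusted p = 7.06e-06), and 2 of 7, Calm2 and Calm3, were higher in ES IP than in JL input by 0.73 ± 0.16 (adjusted p = 0.00601) and 0.64 ± 0.15 (adjusted p = 0.00709). All 8 AMPA receptor genes and partners fell in the JL IPs, from -2.97 ± 0.16 (adjusted p = 3.89e-07) for the receptor subunit Gria2 to -1.75 ± 0.18 (adjusted p = 2.52e-05) for the cornichon Cnih3. Against JL input, 6 were lower in the ES IPs and 1, the scaffold Dlg4, was higher (0.63 ± 0.13, adjusted p = 0.00456).

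Cation channels that are not gated by membrane voltage in the same way, listed with some associated proteins, went both ways in the JL IPs. The associated proteins were the calcium sensors Stim1 and Stim2 and the sodium leak channel partners Unc79 and Unc80. Of 14 genes, 4 rose, 8 fell and 2 did not pass, against 36.7% of all tested genes called higher and 37.4% called lower. Stim1, Unc79 and Unc80 were among the 8 that fell, and Stim2 did not pass. Itpr3, an inositol trisphosphate receptor that releases calcium from the endoplasmic reticulum, rose most: it had 6.14, 4.55 and 3.25 CPM in the ES IPs, 30.3, 33.0 and 29.6 CPM in the JL IPs and 0.687, 0.658 and 0.718 CPM in the JL inputs. Over JL input, Itpr3 stood at 5.49 ± 0.15 (adjusted p = 1.02e-08) in JL IP and 2.75 ± 0.28 (adjusted p = 1.40e-04) in ES IP on the log2 scale. Orai1, the pore of store-operated calcium entry, had 7.98, 7.08 and 6.91 CPM in the ES IPs, 40.9, 51.1 and 42.9 CPM in the JL IPs and 2.92, 3.17 and 3.31 CPM in the JL inputs (3.84 ± 0.14, adjusted p = 4.39e-08 for JL IP over JL input). Tpcn1, an endolysosomal cation channel, rose by 2.92 ± 0.08 (adjusted p = 8.10e-09) and Itpr2 by 1.51 ± 0.12 (adjusted p = 5.49e-06) on the log2 scale in the JL IPs. The lowest was Unc80, a subunit of the sodium leak channel complex of neurons (-2.58 ± 0.16, adjusted p = 1.15e-06), and its pore Nalcn was at -2.25 ± 0.23 (adjusted p = 3.01e-05). In ES IP against JL IP, 6 of the 14 rose and 4 fell (background 29.7% higher and 28.2% lower). Itpr3 was at -2.66 ± 0.25 (adjusted p = 6.41e-06) and Orai1 at -2.54 ± 0.19 (adjusted p = 1.73e-06).

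Marker lists of the cell types a cortex homogenate holds give the scale for these values; their part in the channel results was not tested. In JL IP over JL input, log2 fold changes ran for endothelium from 6.12 (Kdr) to 9.49 (Cldn5), for neurons from -3.79 (Map2) to -1.50 (Nefl), for excitatory neurons from -3.20 (Rorb) to -2.42 (Slc17a7) and for inhibitory neurons from -3.48 (Pvalb) to 0.20 (Lhx6). They ran for astrocytes from -2.96 (Aqp4) to 0.87 (Gja1), for oligodendrocytes from -3.50 (Ermn) to -1.42 (Cnp), for their precursors from -2.86 (Sox10) to -0.75 (Cspg4) and for microglia from -3.68 (Itgam) to 0.19 (Tmem119). They ran for pericytes from -2.82 (Rgs5) to 3.76 (Anpep) and for fibroblasts from -3.38 (Lum) to 3.66 (Islr); of the smooth muscle markers Mylk was highest, at 2.37, and Cnn1 was at 0 in 2 of the 3 JL IPs.

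By subfamily, the median log2 fold change of JL IP over JL input was -2.84 for sodium alpha, -2.13 for sodium beta, -2.10 for L-type, -1.93 for P/Q, N and R type, -1.99 for T-type, -2.43 for alpha2delta, -2.19 for calcium beta and -2.28 for gamma subunits, and every one lay below the -0.09 of all tested genes. For ES IP over JL input, the medians were -1.27 for sodium alpha, -0.31 for sodium beta, -0.66 for L-type, -0.60 for P/Q, N and R type, -0.62 for T-type, -0.97 for alpha2delta, -0.12 for calcium beta and -0.63 for gamma subunits, beside 0.00 over all 17477 tested genes. The 2 beta subfamilies thus lay nearest to 0 in ES IP against JL input and the sodium alpha subunits farthest below it, and differences between subfamilies were not tested.

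**Figure D4:**
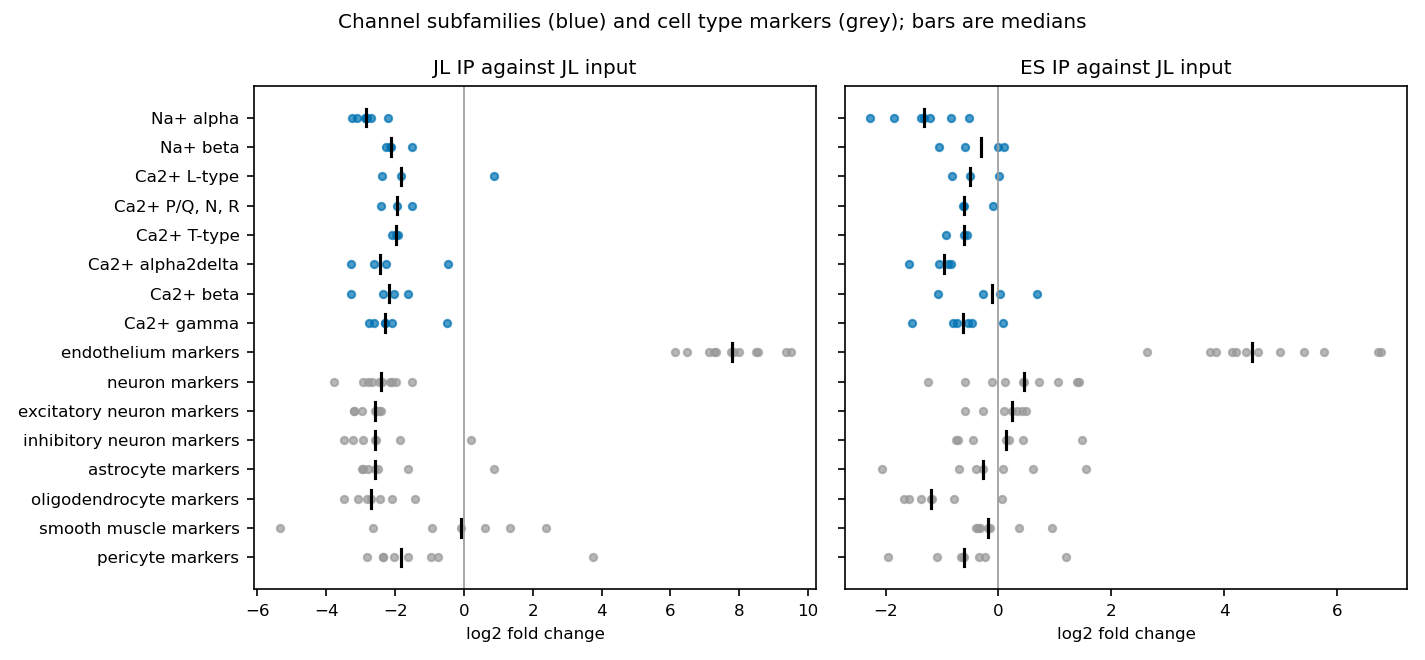
Log2 fold changes of channel genes by subfamily (blue, members with a mean of at least 1 CPM in a group) and of cell type marker genes (grey), for JL IP against JL input (left) and ES IP against JL input (right); each point is a gene and black bars are medians. Endothelial markers have medians of 7.80 in the left and 4.48 in the right panel, far right of the channel genes in both panels.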

How the data were processed

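RNA-seq gene counts were analysed for 3 ES IP, 3 JL IP and 3 JL input libraries. Whole-number read counts per gene symbol were deposited by the authors; the submitters' processing notes name STAR 2.0.0e, HTSeq and the mm10 genome. Which annotation, strand setting and read filters were used is not given in the sources used here. Antisense overlaps cannot be resolved. The 6 rows that name no gene were left out. Of gene counts and these 2 kinds of reads together, reads without a feature made up 17.3 to 24.4% and ambiguous reads 2.04 to 11.3%. From these counts, pairs of groups were compared with edgeR 4.0.16 in R 4.3.3 (quasi-likelihood test, filterByExpr, TMM, Benjamini-Hochberg adjustment over all tested genes, threshold 0.05), fitting only the 2 groups compared; the code was tested on simulated data. Standard errors are the log2 fold change divided by the root of F. CPM shown used TMM factors over all 9 libraries; exon lengths and coordinates are from GENCODE M21 (GRCm38, the mm10 assembly), in which Scn2a1 is Scn2a. A floor of 3 counts lies at 0.0589 to 0.103 CPM, and such limits cover counting error only. Alternatives were RLE size factors, library size alone, no filter, DESeq2 1.42.0, limma-voom 3.58.1, a replicate block, 1 fit of all 9 libraries and leaving out each library. Per-library values are given for channel genes with a mean of at least 10 CPM in a group or called in ES IP against JL input; of other lists, the genes with the highest and lowest log2 fold change in JL IP against JL input are named, and Ank3, Nalcn and a few more were named after their values were seen. Results of a few genes are not reported here by name. The members and lists were chosen with earlier results of these data known.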

Additional observations from a re-analysis of the deposited data

Results flagged for a closer look

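Cacnb1 differed between the IPs of the 2 investigators relative to the same JL inputs: all 3 ES IPs lay above all 3 inputs and all 3 JL IPs below them. Opposite calls were not particular to Cacnb1. All 10 general neuron markers were lower in JL IP than in JL input. In ES IP against JL input, 6 of these 10 were higher, 2 lower and 2 did not pass. Calm2, Calm3 and Dlg4 were also called lower in JL IP and higher in ES IP. The share of all genes with such opposite calls was not counted. For Cacnb1 the difference itself, ES IP over JL IP, was 2.80 ± 0.25 (adjusted p = 4.45e-06) on the log2 scale by edgeR's quasi-likelihood test. The general neuron markers had a median of 2.95 in this comparison and the endothelial markers -3.02; their part in the value of Cacnb1 was not tested, and investigator and sequencing lane cannot be told apart.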

How the results depend on the processing

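Over the single channel genes reported here, direction and side of the threshold were kept in 427 of 429 values for JL IP against JL input, 401 of 416 for ES IP against JL IP and 382 of 442 for ES IP against JL input. Without each library in turn, the members lower in JL IP numbered 32 to 33, with 0 higher each time; those higher in ES IP than in JL IP numbered 27 to 29 and those lower 0 to 2; those lower in ES IP than in JL input numbered 18 to 27 and those higher 1 to 2. In 1 fit of all 9 libraries, 1 member (Cacna2d4) was lower in ES IP than in JL IP and 19 were lower than in JL input. Same-numbered libraries correlated by 0.0998, 0.0382 and 0.0593 in their deviations between JL IP and JL input; each was best with its own number, a hint from the data. Same-numbered JL libraries shared a lane by their deposited names, and neither names nor labels say that they shared a mouse or homogenate. With the replicate block, 32 members were lower in JL IP, 28 higher in ES IP than in JL IP, and 25 lower and 1 higher in ES IP than in JL input. Values near 0 turned sign. For ES IP over JL input, Cacna1c was -0.0017 with RLE factors, -0.0017 by DESeq2, -0.037 by limma-voom, -0.034 with the replicate block and -0.11 with library size alone, where Cacnb3 was -0.079 and Cacng8 -0.043. Without 1 library these ranged over -0.12 to 0.24 for Cacna1c, -0.0087 to 0.076 for Cacnb3, -0.088 to 0.26 for Cacng8, -0.24 to 0.098 for Cacna1b and -0.089 to 0.063 for Scn2b. Cacng4 in ES IP over JL IP was -0.057 in the fit of all libraries and -0.14 to 0.12 without 1, and Cacna1s in JL IP over JL input -0.26 to 1.35 without 1. Library size alone moved the median of all genes to -0.11 for ES IP and -0.35 for JL IP over JL input, against 0.00 and -0.09 with TMM. The causes of these changes were not tested. The members left untested rest on few counts, and a change in them may not be detectable at this depth.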
